A study of Mus musculus with 9 samples.

Results

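Mucosal defence genes of the intestinal epithelium, other than the defensins, were followed across 9 RNA-seq libraries of sorted Lgr5-GFP+ intestinal stem cells. The set has 10 genes, Dmbt1, Reg3a, Reg3b, Reg3g, Pigr, Lypd8, Lcn2, Nos2, Duox2 and Duoxa2, found by matching the Ensembl identifiers of the count table to these symbols. They are 10 of 57180 identifiers, and all 10 are among the 13405 genes that passed the filter on low counts. The set was selected on values of these same libraries, with the differences between the groups in read counts known, so levels and fold changes of these genes are a description and carry no test.

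The epithelium of the gut keeps bacteria at a distance with secreted proteins and with reactive chemistry. Reg3 proteins are C-type lectins, of which the mouse gut makes REG3B and REG3G in bulk; DMBT1 is a large mucin-like scavenger receptor glycoprotein that binds bacteria; LYPD8 coats flagellated bacteria; the polymeric immunoglobulin receptor PIGR carries IgA across the cell; lipocalin 2 binds bacterial siderophores. DUOX2 makes hydrogen peroxide at the cell surface and needs its maturation factor DUOXA2, and NOS2 makes nitric oxide. Many of these genes are known targets of cytokine and microbial signals that act through STAT3 and NF-kappaB.

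All mice carried Lgr5-EGFP-CreERT2, which makes GFP and a tamoxifen-dependent Cre in cells that express the stem cell gene Lgr5, and floxed Kansl1 (Kansl1 f/f). KANSL1 is a scaffold of the NSL histone acetyltransferase complex. KO day 3 mice were given tamoxifen every day for 3 days, KO day 4 mice for 4 days, and controls (genotype labelled KANSL1-WT) were given corn oil, with 3 libraries of small intestine in each group and no ages in the labels. Loss of Kansl1 and tamoxifen went together, and the step from day 3 to day 4 mixed dose with time. Library names begin with A in controls and B in both KO groups, and what the letter stands for was not given, so it cannot be told apart from the group. The labels do not say that replicates were separate animals, so the spread between them may be technical.

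Libraries held 8400458 to 21484679 counts. Mitochondrial transcripts took 16.4% to 25.8% of the counts in controls and 66.9% to 72.1% on KO day 4, which left 2555098 to 4752041 counts of nuclear genes there against 9810102 to 13727022 in controls. Levels are therefore given as CPM, read counts scaled to a common size, of the TMM-scaled library size, a scaling that sets the bulk of the genes level between libraries. With library size alone the median over all genes of the log2 fold change moved from -0.02 to -0.39 on KO day 3, from -0.06 to -1.95 on KO day 4, and from -0.02 to -1.54 for day 4 against day 3. Kansl1 was at 4.46, 11.4 and 9.84 CPM in controls, at 2.81, 2.99 and 2.55 on KO day 3, and at 2.93, 5.09 and 8.96 on KO day 4, so the KO day 4 libraries overlapped the controls. One library in each KO group was unlike the rest of its group. KO day 3 replicate 1 correlated with its group at 0.910 and 0.914 (log2 CPM across genes; the others of that group at 0.971), and KO day 4 replicate 3 at 0.857 and 0.863 (the others at 0.923). The labelled cell type was checked on its markers. Stem cell markers (10 genes summed, all detected in every library) were at 18540 to 22040 CPM of nuclear counts in controls, 12550 to 18270 on KO day 3 and 3268 to 8484 on KO day 4. Paneth cell markers (11 genes) were at 23540 to 58710, 38180 to 58720 and 150000 to 207600. Control replicate 1 gave the highest control value, against 24220 and 23540 in replicates 2 and 3. Its correlations with them (0.971 and 0.969) were like the 0.973 between them. Most of the stem cell sum was Olfm4, with 217185 of 238180 counts in control replicate 1 and 35996 of 40314 in KO day 4 replicate 1. The stem cell sum therefore does not show that each of its 10 genes fell. In bulk libraries fewer cells of a type and less RNA per cell cannot be told apart.

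The 3 Reg3 genes lie close together on chromosome 6, and they are shown first because Reg3b and Reg3g, close relatives, went different ways. In GRCm38 coordinates of GENCODE M21, Reg3b (ENSMUSG00000071356) spans chr6:78370657-78373466 on the plus strand, Reg3a (ENSMUSG00000079516) chr6:78380709-78383827 on the plus strand, and Reg3g (ENSMUSG00000030017) chr6:78466269-78468872 on the minus strand. Their promoters, from RefSeq (GRCm38.p6), are given 5′ to 3′ on the strand of the gene from 150 to 21 bases before the RefSeq start, with motif matches in capitals:
Reg3a, chr6:78380559-78380688, plus strand: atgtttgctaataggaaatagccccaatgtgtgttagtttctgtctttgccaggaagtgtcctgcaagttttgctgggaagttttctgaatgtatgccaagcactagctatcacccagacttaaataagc
Reg3b, chr6:78370735-78370864, plus strand: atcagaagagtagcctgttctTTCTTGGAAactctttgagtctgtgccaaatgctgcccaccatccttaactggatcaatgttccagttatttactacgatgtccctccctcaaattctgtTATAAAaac
Reg3g, chr6:78468895-78469024, minus strand: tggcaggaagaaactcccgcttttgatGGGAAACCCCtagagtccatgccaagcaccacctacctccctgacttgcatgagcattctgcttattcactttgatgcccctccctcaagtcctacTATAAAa

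The Reg3b and Reg3g stretches resemble each other most. Over the 250 bases before the start, Reg3b and Reg3g were identical at 70.0% of 247 aligned bases, Reg3a and Reg3g at 68.2% of 201, and Reg3a and Reg3b at 62.9% of 194. A match to the STAT motif TTCNNNGAA lay 129 to 121 bases before the start of Reg3b, and 7.18% of the 27025 RefSeq promoters hold such a match. Reg3g instead had a match to the NF-kappaB motif 123 to 114 bases before its start, which 3.75% of promoters hold. Both had TATAAA, at 29 to 24 and 27 to 22 bases before the start, as do 13.0% of promoters (both strands searched for each motif), and Reg3g had a second, on the other strand at 161 to 156. The searched window of Reg3a held none of the 3 motifs. Part of the Reg3b window lies inside a longer GENCODE isoform of Reg3b, in its first intron. A match is a description of the letters and not a bound site.

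Reg3b was lower at both KO times. It was at 240.9, 184 and 171 CPM in controls, at 161.5, 55.9 and 62.8 on KO day 3, and at 78.3, 47.1 and 159 on KO day 4. Every KO library was below every control, and the libraries nearest the controls, KO day 3 replicate 1 and KO day 4 replicate 3, are those that stood apart from their groups. The log2 fold change was -1.09 (SE 0.45) on KO day 3 and -1.07 (SE 0.45) on KO day 4. Without those 2 libraries it was -1.74 (SE 0.24) and -1.66 (SE 0.24). The likeness of the 2 times depends on the scaling, since with library size alone the values were -1.40 and -2.995, and from day 3 to day 4 the log2 fold change was 0.02 (SE 0.45) with TMM scaling and -1.59 with library size alone.

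Reg3g did not follow Reg3b. It was at 229, 99.7 and 74.1 CPM in controls, at 109.5, 71.6 and 119.6 on KO day 3, and at 258, 190.8 and 649 on KO day 4. The KO day 4 libraries lay above all KO day 3 libraries, but one of them lay below the highest control, replicate 1. At KO day 3 the log2 fold change was -0.42 (SE 0.47). At KO day 4 it was 1.44 (SE 0.48) against control, but -0.44 with library size alone, and 0.74 (SE 0.42) without the libraries that stood apart. From day 3 to day 4 it was 1.87 (SE 0.49), and 0.27 with library size alone.

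The ratio of Reg3g to Reg3b counts within a library does not depend on scaling. It was 0.953, 0.541 and 0.433 in controls, 0.678, 1.28 and 1.90 on KO day 3, and 3.30, 4.05 and 4.08 on KO day 4. All controls held less Reg3g than Reg3b, and all KO day 4 libraries held at least 3.30 times as much Reg3g as Reg3b, replicate 3 included. The KO day 3 libraries spanned the range between, with replicate 1 within the control range. The transcripts of these genes share no stretch of 50 bases, so reads of that length that match fully belong to 1 of them.

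**Figure D1:**
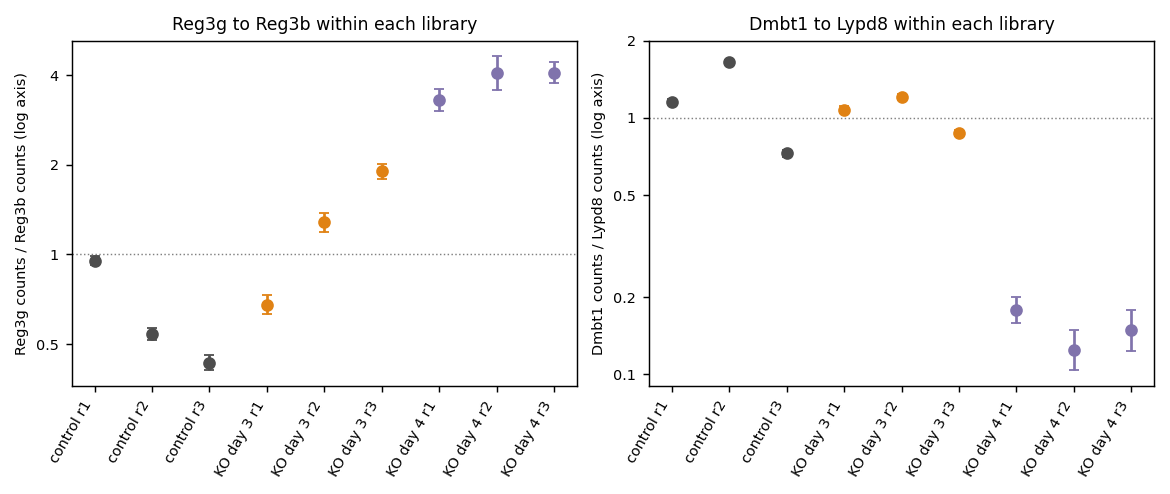
Ratio of Reg3g to Reg3b counts (left) and of Dmbt1 to Lypd8 counts (right) in each of the 9 libraries, on log axes, with r1 to r3 the replicates; bars are exact binomial 95% intervals, which cover counting error only, and the dotted line marks a ratio of 1. Reg3g to Reg3b is 3.30 to 4.08 on KO day 4 and 0.433 to 0.953 in controls, and Dmbt1 to Lypd8 is 0.124 to 0.178 on KO day 4 and 0.726 to 1.66 in controls.

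Reg3a was close to the limit of detection. It had 0.494 to 0.892 CPM in controls, 0.520 to 1.96 on KO day 3 and 0 to 2.01 on KO day 4, where replicate 2 had no count and 3 counts would be 0.477 CPM. The groups overlapped, and the log2 fold changes of 0.38 (SE 0.97) and 0.40 (SE 1.02) were below their errors; with library size alone the latter was -1.49. Reg3d, which lies between Reg3b and Reg3a, had 0, 3 and 1 counts in the controls, none in the KO libraries, and did not pass the filter.

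Dmbt1 had the largest loss of the set. Dmbt1 (ENSMUSG00000047517, chr7:131032053-131121630, plus strand) was at 659.9, 931 and 357 CPM in controls and at 594, 660.2 and 441.5 on KO day 3. At KO day 4 it was at 38.9, 22.3 and 31.8. The KO day 3 libraries lay within the range of the controls, while every KO day 4 library lay below every other library. The mean was 649.5 ± 287 CPM (SD, n = 3) in controls, 565 ± 112 on KO day 3 and 31.0 ± 8.36 on KO day 4, 20.96 times lower than in controls. The log2 fold change was -0.20 (SE 0.31) on KO day 3, -4.39 (SE 0.36) on KO day 4 and -4.19 (SE 0.36) from day 3 to day 4. Leaving out any 1 library kept the KO day 4 value between -4.69 and -4.04, and with library size alone it was -6.27. Dmbt1 lies within the span of Fgfr2 on the opposite strand, but their exons do not overlap, and Fgfr2 had 1358 counts over all libraries against 88405 for Dmbt1.

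Lypd8, a GPI-anchored protein that is shed into the mucus, was among the steadiest of the set within a group. Lypd8 (ENSMUSG00000013643, chr11:58379043-58390728, plus strand) was at 570.6, 563 and 492 CPM in controls, at 551, 548 and 506 on KO day 3, and at 219, 179 and 214 on KO day 4. Controls and KO day 3 overlapped, and every KO day 4 library was below both. The log2 fold change was -0.02 (SE 0.14) on KO day 3 and -1.41 (SE 0.15) on KO day 4, or -0.38 and -3.30 with library size alone. Dmbt1 was lower relative to Lypd8 within the same libraries. The ratio of Dmbt1 to Lypd8 counts was 1.16, 1.66 and 0.726 in controls, 1.08, 1.21 and 0.872 on KO day 3, and 0.178, 0.124 and 0.149 on KO day 4.

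Pigr had a lower mean at both KO times, more so on day 4. Pigr (ENSMUSG00000026417, chr1:130826684-130852249, plus strand) was at 438, 577 and 580.2 CPM in controls, at 305, 440.4 and 349 on KO day 3, and at 161, 161 and 181 on KO day 4. One KO day 3 library lay within the control range, and the KO day 4 libraries lay below all others, with an SD of 11.5 CPM around a mean of 168. The log2 fold change was -0.54 (SE 0.18) on KO day 3, -1.67 (SE 0.18) on KO day 4 and -1.12 (SE 0.18) from day 3 to day 4. They were, with library size alone, -0.95, -3.59 and -2.64. Pigr and Lypd8 kept a similar proportion, with 0.768 to 1.18 Pigr counts per Lypd8 count in controls, 0.553 to 0.804 on KO day 3 and 0.737 to 0.898 on KO day 4.

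**Figure D2:**
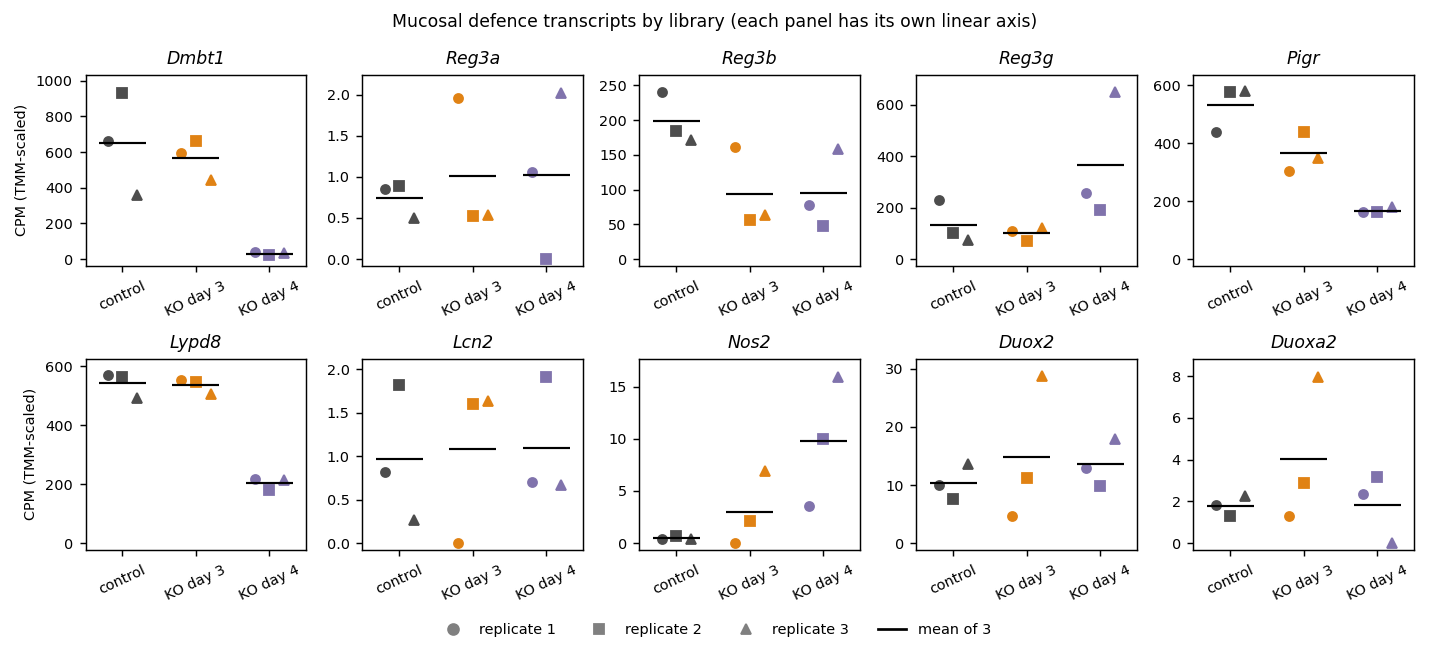
CPM of TMM-scaled library size of the 10 genes in each of the 9 libraries, with circles, squares and triangles for replicates 1, 2 and 3, a bar at the mean of 3, and a separate linear axis in each panel. Dmbt1, Pigr and Lypd8 are lowest in all 3 KO day 4 libraries, Reg3b is below the controls in all KO libraries, and the triangle of KO day 3 is the highest of its group for Nos2, Duox2 and Duoxa2.

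The oxidase genes Duox2 and Duoxa2 did not separate the groups. They stand head to head on chromosome 2, Duox2 (ENSMUSG00000068452, chr2:122279247-122298449, minus strand) and Duoxa2 (ENSMUSG00000027225, chr2:122298900-122302885, plus strand), with 450 bases between them. Duox2 was at 10.1, 7.54 and 13.6 CPM in controls, at 4.69, 11.3 and 28.8 on KO day 3, and at 12.9, 9.86 and 17.9 on KO day 4. Duoxa2 was at 1.82, 1.29 and 2.25 CPM in controls, at 1.28, 2.86 and 7.94 on KO day 3, and at 2.34, 3.18 and 0 on KO day 4. All groups overlapped for both genes, and KO day 3 replicate 3 was the highest library for each.

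For Duox2 the log2 fold change was 0.53 (SE 0.51) on KO day 3, and -0.37 without KO day 3 replicate 3. At KO day 4 it was 0.37 (SE 0.53), but -1.54 with library size alone. For Duoxa2 it was 1.19 (SE 0.83) on KO day 3, and 0.23 without that replicate, and on KO day 4 it was 0.10 (SE 0.87), but -1.73 with library size alone. The counts of the pair kept a narrow ratio within controls and within KO day 3, while on KO day 4 few counts left it uncertain. Controls held 5.53, 5.85 and 6.06 Duox2 counts per Duoxa2 count and the KO day 3 libraries 3.67, 3.94 and 3.63, although their Duox2 levels spanned 4.69 to 28.8 CPM. Counting error was wide, with exact binomial 95% intervals of 4.04 to 7.72 in control replicate 1 and 3.12 to 4.22 in KO day 3 replicate 3. At KO day 4 the ratio was 5.50 (interval 3.395 to 9.35) in replicate 1 and 3.10 (1.85 to 5.42) in replicate 2, and these intervals overlapped. Replicate 3 of KO day 4 had 80 Duox2 counts and no Duoxa2 count, where 3 counts would be 0.672 CPM. The same KO day 3 replicate 3 also stood out for Nox1, a further epithelial NADPH oxidase chosen here after its values were seen, with 233 counts against 1 and 7 in the other libraries of its group. Duoxa2 overlaps Duoxa1 on the opposite strand, but Duoxa1 had 7 counts in all libraries against 481 for Duoxa2.

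Nos2 was near the limit of detection in controls and at a low level in all 3 KO day 4 libraries. Nos2 (ENSMUSG00000020826, chr11:78920787-78960254, plus strand) was at 0.349, 0.727 and 0.359 CPM in controls, at 0, 2.17 and 6.91 on KO day 3, and at 3.52, 10.02 and 15.9 on KO day 4. These are 9, 22 and 8 counts, then 0, 50 and 195, then 30, 63 and 71. Every KO day 4 library was above every control, and KO day 3 spread from no count to within the KO day 4 range.

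The log2 fold change of Nos2 was 2.67 (SE 1.05) on KO day 3 and 4.30 (SE 1.11) on KO day 4. Without KO day 3 replicate 3 the day 3 value was 1.25, and without both libraries that stood apart the values were 3.21 (SE 0.63) and 3.76 (SE 0.66). At KO day 4 it was 2.34 with library size alone, the same direction. The edgeR call of Nos2 on KO day 4 (adjusted p = 0.019) was lost when any 1 control library was left out. Within libraries, Nos2 had 0.0346, 0.0965 and 0.0264 counts per Duox2 count in controls, 0, 0.192 and 0.240 on KO day 3, and 0.273, 1.02 and 0.888 on KO day 4.

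NOS2 is also known from macrophages, so markers of blood-derived cells are given beside it, as CPM of nuclear counts. Pan-leukocyte markers (5 genes) were at 0.612 to 1.53 in controls, 1.96 to 20.6 on KO day 3 and 37.9 to 93.5 on KO day 4. Mast cell markers (9 genes) were at 0.102 to 0.583, 20.2 to 185 and 492 to 1405. Neutrophil and macrophage markers (14 genes, of which 5 to 7 had counts) were at 13.2 to 26.5, 25.5 to 36.1 and 36.0 to 92.8, with Ly6g, S100a8, S100a9, Csf3r, Elane and Camp at 0 in all 9 libraries. The genes of that sum went different ways. Cd14 had 230, 285 and 87 raw counts in controls and 54, 27 and 1 on KO day 4. Lyz2 went from 55, 31 and 14 to 124, 66 and 178, and Adgre1 from 3, 0 and 0 to 22, 4 and 24. Itgam (40, 21 and 17 to 7, 7 and 15), Csf1r (10, 11 and 1 to 28, 17 and 7) and Cd68 (3, 6 and 9 to 15, 2 and 11) had few counts. Lymphocyte and plasma cell markers (10 genes, nearly all Sdc1 counts) were at 212.6 to 286.7 CPM of nuclear counts in controls, 175.5 to 294.9 on KO day 3 and 99.4 to 190.2 on KO day 4. On average the other 3 sums and the Nos2 level were all highest on KO day 4. So were the sums of Paneth, goblet, enteroendocrine, tuft and stromal markers, while those of stem cells, enterocytes and red blood cells were lowest there. The part of any of these cells in the Nos2 level was not tested.

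Lcn2 (ENSMUSG00000026822, chr2:32384633-32388252, minus strand) was barely detected. It was at 0.815, 1.82 and 0.269 CPM in controls, at 0, 1.60 and 1.63 on KO day 3, and at 0.703, 1.91 and 0.672 on KO day 4, which rests on 0 to 55 counts a library. The groups overlapped fully, and the log2 fold changes of 0.19 (SE 1.04) and 0.17 (SE 1.10) were below their errors; with library size alone they were -0.23 and -1.71. The counts of Lcn2 and Reg3a leave SE of 0.97 to 1.10 on the log2 scale, so differences well above that size could go uncalled. With a like SE of 1.05, Nos2 at 2.67 on KO day 3 was not called (edgeR adjusted p = 0.244).

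Per kilobase of exon, the genes fell into 5 abundant and 5 scarce ones in controls. Lypd8 came first at 422 ± 33.7 CPM per kb (SD, n = 3), then Reg3b at 174 ± 32.5, Pigr at 132 ± 20.2, Dmbt1 at 92.0 ± 40.7 and Reg3g at 63.6 ± 39.4. The ranges of Lypd8, Reg3b and Pigr were separate from each other, while Dmbt1 overlapped both Pigr and Reg3g. A wide gap led to Duox2 at 1.54 ± 0.450 CPM per kb, Duoxa2 at 1.12, Reg3a at 0.905, Lcn2 at 0.369 and Nos2 at 0.109, and each of these overlapped the next. Of 13194 nuclear genes tested, Lypd8 ranked 127 and Nos2 12625 in controls.

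On KO day 4 Reg3g had the highest mean, 173 ± 117 CPM per kb, overlapping Lypd8 at 159 ± 16.8. That place rests on replicate 3, one of the libraries that stood apart, where Reg3g was at 307 and Lypd8 at 167; in replicates 1 and 2 Reg3g was at 122 and 90.3 and Lypd8 ahead of it at 170.3 and 139.6. They were followed by Reg3b at 83.0 ± 50.6, Pigr at 41.7 ± 2.85 and Dmbt1 at 4.39 ± 1.18. Dmbt1 was then no longer separate from Nos2 at 2.22 ± 1.40, and Nos2 overlapped Duox2 at 2.00 ± 0.601. At KO day 3 the order of the 5 abundant genes differed from that of the controls in Pigr and Reg3b, which had changed places but overlapped.

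**Figure D3:**
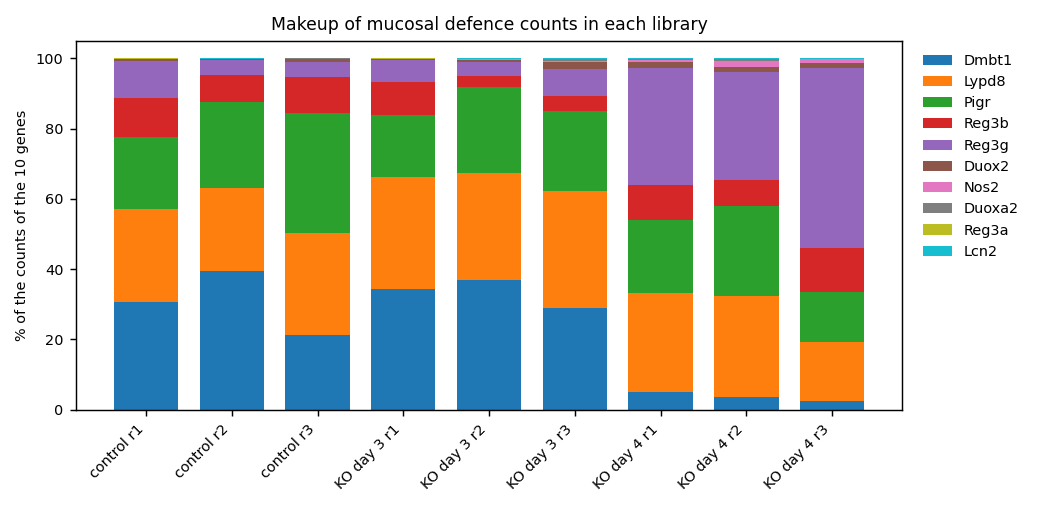
Share of each gene in the summed counts of the 10 genes, in percent, in each of the 9 libraries (r1 to r3 are the replicates). Dmbt1 takes 21.1% to 39.3% in controls and 2.502% to 5.02% on KO day 4, where Reg3g takes 30.5% to 51.0%; counts are not divided by gene length.

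The summed counts of the 10 genes made up 0.446% ± 0.0699 (SD, n = 3) of nuclear counts in controls, 0.315% ± 0.0203 on KO day 3 and 0.159% ± 0.0565 on KO day 4. The controls, at 0.384% to 0.522%, were above the KO day 3 libraries, at 0.301% to 0.339%, and those above the KO day 4 libraries, at 0.114% to 0.222%. Within that sum Dmbt1 gave 30.4% ± 9.11 in controls and 3.69% ± 1.26 on KO day 4, and Reg3g 6.42% ± 3.68 and 38.3% ± 11.1. The share of Reg3b was 9.69% ± 1.74 in controls and 10.04% ± 2.49 on KO day 4.

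Counted over the whole set, 0 of 10 genes passed edgeR's quasi-likelihood test (Benjamini-Hochberg adjusted p under 0.05 over 13405 genes) on KO day 3, where 0.44% of all genes did. At an unadjusted p under 0.05 there were 3, with DESeq2 0 and with limma voom 1. At KO day 4, 1 gene (Nos2) was called higher, against 11.1% of all genes, and 3 (Dmbt1, Pigr and Lypd8) lower, against 11.5%, so 4 of 10 in all beside 22.5%. From day 3 to day 4, 1 gene (Reg3g) was called higher, against 6.52%, and 3 (Dmbt1, Pigr and Lypd8) lower, against 6.03%, 4 in all beside 12.5%. That call of Reg3g held in 14 of 20 settings. It was lost without any 1 KO day 3 library, KO day 4 replicate 3 or both libraries that stood apart, and with library size alone. Scaled by library size alone, 1 was higher and 5 lower on KO day 4, and 0 higher and 6 lower from day 3 to day 4. Because the genes were picked with these contrasts known, nothing is read from these counts.

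Over the 10 genes the log2 fold change had a median of 0.08 on KO day 3, 0.14 on KO day 4 and -0.09 from day 3 to day 4, beside -0.02, -0.06 and -0.02 for all genes. In CPM, 0 of the 10 were above every control on KO day 3 (12.1% of all genes) and 1, Reg3b, was below (18.0%), so 1 did not overlap (30.1%). On KO day 4, 1, Nos2, was above (20.6%) and 4, Dmbt1, Reg3b, Pigr and Lypd8, were below (26.4%), 5 in all (47.0%). Against KO day 3, 1, Reg3g, was above (15.8%) and 3, Dmbt1, Pigr and Lypd8, were below (17.0%), 4 in all (32.8%). Both comparisons with control used the same 3 control libraries. Set side by side, the values of KO day 3 and KO day 4 were -0.20 and -4.39 for Dmbt1, -1.09 and -1.07 for Reg3b, -0.42 and 1.44 for Reg3g, and 2.67 and 4.30 for Nos2. With library size alone they were -0.57 and -6.27 for Dmbt1, -1.40 and -2.995 for Reg3b, -0.70 and -0.44 for Reg3g, and 2.26 and 2.34 for Nos2.

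**Figure D4:**
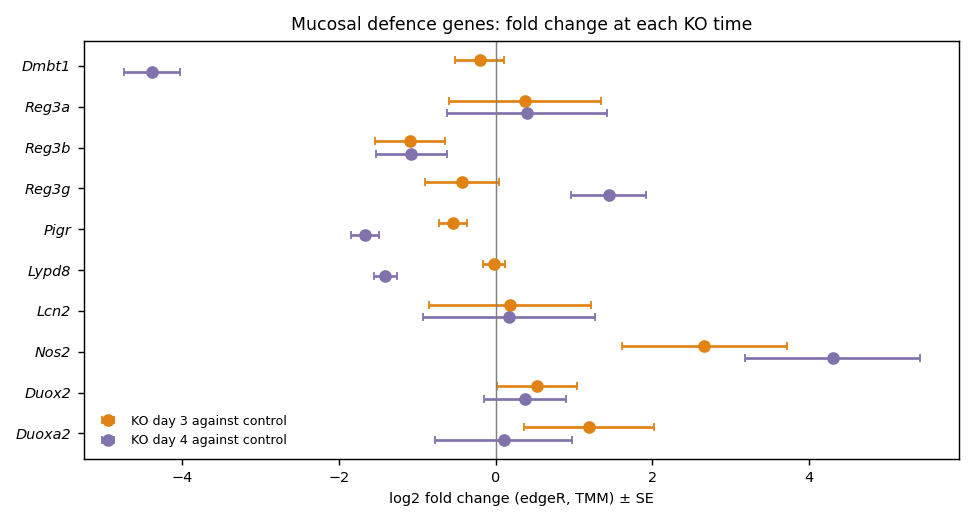
Log2 fold change of each of the 10 genes on KO day 3 and KO day 4 against the same 3 controls, with bars of 1 SE from the edgeR fit. Dmbt1 sits at -0.20 and -4.39, Reg3b at -1.09 and -1.07, and the bars of Reg3a and Lcn2 cross 0 at both times.

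Other genes had profiles close to those of single members. Likeness was measured as the root mean square difference in log2 CPM over the 9 libraries after centring each gene, over 8050 genes, and it describes shape only. Nearest to Dmbt1 came Pipox, a peroxisomal oxidase (0.61), and Ugt1a6a, a glucuronosyltransferase (0.79), and nearest to Lypd8 came Pex13, a peroxisomal import factor (0.12). Pigr was nearest to Polrmt, the mitochondrial RNA polymerase (0.17), Reg3b to Bin3 (0.26) and Reg3g to Kdm6b, a histone demethylase (0.41). Pigr and Lypd8 were 0.30 apart, Reg3b and Reg3g 1.18, and Duox2 and Duoxa2 1.06, which includes the KO day 4 library with no Duoxa2 count.

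Genes of related pathways were followed in lists that hold no member. Of 20 genes of IL-22, IL-6 and STAT3 signalling 17 were tested, and 3 rose and 0 fell on KO day 4, the log2 fold changes having a median of 0.01; with library size alone 0 rose and 13 fell. The 3 are 17.6% of the list, below the 22.5% of all genes called in that comparison. Stat3, the transcription factor, went from 11.4 ± 0.693 CPM (SD, n = 3) in controls to 21.5 ± 2.65 on KO day 4 (log2 difference of 0.91, SE 0.25, adjusted p = 0.022 by edgeR), but its log2 fold change was -0.98 with library size alone. The others were the kinase Jak1 (0.69, SE 0.22, edgeR adjusted p = 0.047) and the receptor chain Il11ra1 (1.29, SE 0.34, edgeR adjusted p = 0.021). They too had the opposite sign with library size alone, at -1.24 and -0.62. Leaving out any 1 control, or KO day 4 replicate 2, left 0 of these 3 calls. At KO day 3, 1 gene fell and 0 rose. It was Tyk2, a further kinase, named after its values were seen. Tyk2 went from 13.0 to 3.10 CPM (log2 fold change -2.07, SE 0.36, edgeR adjusted p = 0.036). That call was lost without any 1 control or KO day 3 library. Il22ra1, the receptor chain specific to IL-22, was at 1.71 to 4.46 CPM in controls and 2.38 to 2.81 on KO day 4.

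Of 39 genes of Toll-like receptor, IL-17 and NF-kappaB signalling 32 were tested, and 5 rose and 2 fell on KO day 4 (median 0.07); 11 passed without KO day 3 replicate 1. The 7 are 21.9% of the list, near the 22.5% of all genes. By library size alone 1 rose and 24 fell. Cxcl16, a chemokine that is made in a membrane-bound form, went from 1.04 to 17.8 CPM (log2 fold change 4.06, SE 0.54, edgeR adjusted p = 0.00085). Nfkb2, the precursor of the p52 subunit of NF-kappaB, went from 7.48 to 31.2 CPM (2.05, SE 0.37, adjusted p = 0.0035), and Bcl3, an atypical IkappaB protein, from 7.57 to 21.4 (1.49, SE 0.31, adjusted p = 0.0067). With library size alone the log2 fold change of Cxcl16 was 2.16, that of Nfkb2 0.10 with the call lost (adjusted p = 0.802), and that of Bcl3 -0.43. Il17rc, a subunit of the IL-17 receptor, fell from 26.9 ± 1.03 to 10.3 ± 0.730 CPM (-1.39, SE 0.18, adjusted p = 0.00077). At KO day 3, 0 of the 32 passed the edgeR test, with 2 at an unadjusted p under 0.05.

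Of 39 other antimicrobial and barrier genes 23 were tested, and 10 rose and 3 fell on KO day 4, with a median of 1.10 beside -0.06 for all genes; with library size alone 3 rose and 11 fell. The 13 are 56.5% of the list, beside 22.5% of all genes. Itln1, an intelectin lectin, went from 1302 to 8370 CPM (log2 fold change 2.68, SE 0.38, edgeR adjusted p = 0.0012), Pla2g2a, a bactericidal phospholipase, from 14.0 to 92.4 (2.72, SE 0.44, adjusted p = 0.0019) and the galectin Lgals3 from 7.16 to 28.8 (2.00, SE 0.29, adjusted p = 0.0013). Pglyrp1, a peptidoglycan recognition protein, went from 107.5 to 244.5 CPM (1.19, SE 0.18, adjusted p = 0.0016), but its log2 fold change was -0.69 with library size alone. Under that scaling Itln1 was at 0.86 and Pla2g2a at 0.85, and the call of Lgals3 was lost (0.09, adjusted p = 0.778). Several of these are Paneth cell products, Itln1 stands in both lists, and the sum of the Paneth cell markers given above moved the same way. The part of Paneth cell RNA in these values was not tested. At KO day 3, 0 of the 23 passed the edgeR test, with 2 at an unadjusted p under 0.05.

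Of 33 genes of NADPH oxidases and hydrogen peroxide handling 25 were tested, and 4 rose and 4 fell on KO day 4, with a median of 0.00; 14 passed without KO day 3 replicate 1, and 5, 5, 4 and 5 without control replicate 1, 2 or 3 or KO day 4 replicate 2. Scaled by library size alone, 2 rose and 20 fell. The 8 of 25 stand beside 22.5% of all genes. Rac2, a small GTPase of the phagocyte oxidase that blood cells express, went from 0.205 to 18.2 CPM (log2 fold change 6.37, SE 0.78, edgeR adjusted p = 0.00058), beside the pan-leukocyte and mast cell sums given above; with library size alone it was at 4.41. The peroxide-handling genes Cat (catalase, -0.89, SE 0.20, adjusted p = 0.0097) and Prdx4 (a peroxiredoxin, -1.46, SE 0.28, adjusted p = 0.0051) fell, as did Arg2, an arginase that competes with NOS2 for arginine (-1.78, SE 0.43, adjusted p = 0.014). At KO day 3, 0 of the 25 passed the edgeR test, with 8 at an unadjusted p under 0.05. Duox1, the paralogue of Duox2, had at most 3 counts in a library.

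**Figure D5:**
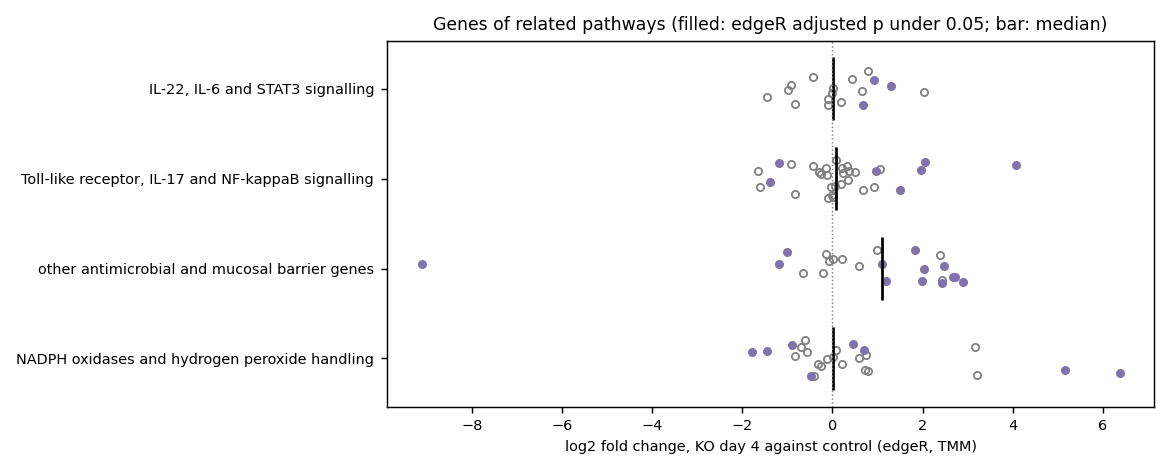
Log2 fold change on KO day 4 against control of the tested genes of the 4 lists under TMM scaling (with library size alone more called genes fell than rose in each list), with filled points for genes past edgeR's adjusted p of 0.05, open points for the others and a bar at each list's median. The medians are 0.01, 0.07, 1.10 and 0.00 from top to bottom; the leftmost point of the third list is Wfdc2, which has no KO day 4 count, so its place depends on the prior count.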

How the data were processed

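Total RNA of sorted cells was treated with DNase and made into mRNA libraries, per the labels' protocols. The authors deposited a table of unnormalized counts of reads for each Ensembl identifier, with a column for each of 9 libraries. HISAT2 2.0.4 and GRCm38 were used, per the submitters' processing notes; the counting tool and its use of strand are not given in the sources used here, so reads of overlapping genes on opposite strands cannot be told apart. GENCODE M21 of the same build named 51933 identifiers and 5247 kept no symbol.

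The 10 genes, the gene lists, the alternatives and the rule for named genes were chosen with earlier results of these data known. The test was edgeR 4.0.16's quasi-likelihood F-test in R 4.3.3, with 1 fit over all 9 libraries and TMM scaling. The filterByExpr minimum was 10 counts in a library and a total of 15, p-values were adjusted over 13405 genes by Benjamini-Hochberg, and the threshold was 0.05. The code was tested on simulated data first. TMM factors were 1.44 to 1.83 in controls, 1.22 to 1.40 on KO day 3 and 0.40 to 0.50 on KO day 4. Levels are TMM-scaled CPM as mean ± SD of 3, and summed cell markers are CPM of nuclear counts, leaving out mitochondrial genes and unprocessed pseudogenes, which include copies of the mitochondrial genome. Levels between genes were divided by the length of the union of exons. Binomial intervals of ratios are exact at 95% and, like the floor of 3 counts, cover counting error only.

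Named were the 10 genes, Kansl1, up to 4 genes of each of 4 lists with the smallest adjusted p among those called on KO day 4, and for members of at least 5 CPM up to 3 genes with the nearest profile (pseudocount 0.5 CPM), of which some are printed. Promoters of 8 of the 10 genes were found in the RefSeq table, Dmbt1 and Nos2 being the others. Alternatives were RLE size factors, library size alone, nuclear genes only, DESeq2 1.42.0, leaving out the filter, requiring a mean of 5 CPM, limma 3.58.1 voom with quality weights, a replicate block, only the 2 groups compared, and leaving out each library or both that stood apart. Libraries of a group differed by more than sampling noise in every pair (chi-square per degree of freedom of at least 12.75).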

Additional observations from a re-analysis of the deposited data

Results flagged for a closer look

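For the 14 genes of the signalling and barrier lists below, the effect on KO day 4 differed from that on KO day 3. This is by edgeR's test of day 4 against day 3 itself, with adjustment over all genes. The shared controls drop out of the fold change, but the spread was fitted over all 9 libraries, controls included. The genes were picked for the smallest adjusted p on KO day 4 against control. That contrast uses the same KO day 4 libraries, so passing here was favoured and adds no support. Of all genes, 12.5% passed this test. Cat, picked by the same rule, did not pass (log2 fold change -0.28, edgeR adjusted p = 0.369). Values are the log2 fold change from day 3 to day 4 with the edgeR adjusted p.

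Among the signalling genes, the receptor chain Il11ra1 was at 1.70 (adjusted p = 0.0126), Stat3 at 0.84 (adjusted p = 0.0464), the kinase Jak1 at 0.77 (adjusted p = 0.0462), Nfkb2 at 1.90 (adjusted p = 0.0103) and Bcl3 at 1.03 (adjusted p = 0.0489). The chemokine Cxcl16 was at 3.77 (adjusted p = 0.00324), and the receptor subunit Il17rc at -1.36 (adjusted p = 0.00244).

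Among the barrier genes, Itln1 was at 2.19 (adjusted p = 0.00643), Pla2g2a at 2.61 (adjusted p = 0.00571), Lgals3 at 1.71 (adjusted p = 0.0063) and Pglyrp1 at 0.61 (adjusted p = 0.0466). Of the oxidase and peroxide genes, Rac2 was at 3.79 (adjusted p = 0.00721), Prdx4 at -1.72 (adjusted p = 0.00571) and Arg2 at -1.55 (adjusted p = 0.0382). The calls of Stat3, Jak1, Bcl3, Pglyrp1 and Arg2, whose adjusted p lie nearest to 0.05, were each lost when KO day 3 replicate 1 or KO day 4 replicate 3 was left out. With library size alone the calls of Il11ra1 (0.17, adjusted p = 0.683), Nfkb2 (0.34, adjusted p = 0.426), Itln1 (0.66, adjusted p = 0.0642) and Lgals3 (0.15, adjusted p = 0.671) were lost, and Stat3, Jak1, Bcl3 and Pglyrp1 had the opposite sign.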

How the results depend on the processing

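For KO day 3 against control the 59 genes called became 518 (39 higher, 479 lower) with library size alone, 317 with no filter, 876 with DESeq2, 1423 with limma voom, 646 without both libraries that stood apart, 337 with only the 2 groups compared and 0 to 345 when 1 library was left out (0 without control replicate 2 or KO day 3 replicate 3, 345 without KO day 4 replicate 3). For KO day 4 the 3021 (1484 higher, 1537 lower) became 11057 (288 higher, 10769 lower) with library size alone and 1588 to 3839 with 1 library left out, lowest without control replicate 2. For day 4 against day 3 the 1682 (874 higher, 808 lower) became 9508 (189 higher, 9319 lower), 2879 with DESeq2, 806 with only the 2 groups compared and 648 to 1802 with 1 library left out, lowest without KO day 3 replicate 2. Of the 10 defence genes, 0 called on KO day 3 became 1 with library size alone, 1 with limma voom, 2 without both libraries that stood apart and stayed at 0 with any 1 left out. The 4 on KO day 4 became 6 with library size alone, with no filter and with limma voom, 3 with the minimum mean CPM of 5, which leaves Nos2 out, and 3 to 5 with 1 library left out. The 4 of day 4 against day 3 became 6 with library size alone and 3 to 4 with 1 library left out.

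Samples with the same replicate number deviated together little (correlations from -0.054 to 0.132, beside -0.087 to 0.085 for different numbers). Such correlations cannot show that the samples are unpaired, and the main fit did not pair them. With the replicate block 9 genes were called on KO day 3, 2680 on KO day 4 and 1537 for day 4 against day 3.

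With library size alone the log2 fold change turned on KO day 4 for Il11ra1 (-0.62), Stat3 (-0.98), Jak1 (-1.24), Bcl3 (-0.43) and Pglyrp1 (-0.69), and from day 3 to day 4 for Stat3 (-0.68), Jak1 (-0.77), Bcl3 (-0.53) and Pglyrp1 (-0.93). Of 855 recomputed fold changes of named list genes 754 kept direction and call, 86 lost the call and 6 gained it. Of 558 recomputed fold changes of the defence genes 527 moved by less than the spread between replicates. With library size alone every defence gene moved by more than that on KO day 4 and from day 3 to day 4. The minimum mean CPM of 5 left no value for Reg3a, Lcn2, Nos2 and Duoxa2. The cause of these moves was not tested. Depth limits Reg3a, Lcn2, Nos2 and Duoxa2 most, with nuclear counts on KO day 4 of 2555098 to 4752041 a library.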

Other observations

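Wfdc2, a secreted protease inhibitor of mucosal surfaces chosen here after its values were seen, had 141, 89 and 71 counts in controls, 35, 16 and 12 on KO day 3 and none in any KO day 4 library. Against a floor of 3 counts over the KO day 4 group it was at least 24.7-fold lower there than in controls. Reg4, a lectin related to the Reg3 family and likewise chosen after its values were seen, was at 162, 64.5 and 53.0 CPM in controls and 111, 117 and 78.1 on KO day 3. On KO day 4 it was at 363, 389.5 and 384, where with TMM scaling every library was above all others. Reg4 had 4169 of 17913787 counts in control replicate 1 and 3100 of 16943055 in KO day 4 replicate 1, so this separation depends on the scaling. Reg1, the gene of the Reg family next to Reg3g on chromosome 6, was at 3.50 to 4.63 CPM in controls, 3.37 to 4.86 on KO day 3 and 0 to 6.05 on KO day 4, with overlapping groups.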
